A study of Mus musculus with 18 samples.

Results

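Metallothionein and zinc transport genes were followed through T cell stimulation in a set of 6 genes, of 36528 entries in the deposited expression table. The set comprised the metallothionein genes Mt1 and Mt2, the zinc-sensing transcription factor gene Mtf1, the zinc exporter gene Slc30a1 and the zinc importer genes Slc39a10 and Slc39a6. The genes were chosen by function and with earlier results of these same libraries known, so their levels are given here as a description, with no p-value. All 6 were found in the table by symbol, and all 6 were at or above 1 nRPKM in each of the 18 libraries.

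The cells were CD4 T cells enriched from spleen. The donors were NZB/W F1 females, the hybrid of NZB and NZW that develops a lupus-like disease. The mice were 21 to 27 weeks old with a proteinuria of 30 to 100 mg/dL, and all cultures received IL-2 at 10 U/mL. An antibody to Ox40, a costimulatory receptor of the TNF receptor family, or an isotype control antibody (control Ig), both of the IgG1 class, was added at 25 µg/mL. The T cell receptor and its costimulator were stimulated with anti-CD3/CD28 beads. Cultures without beads had 0 per cell, those called low beads 0.1 per cell and those called high beads 1 per cell, and RNA was collected after 48 hours. The 6 groups of 3 libraries were therefore anti-Ox40 and control Ig without beads, anti-Ox40 and control Ig with low beads, and anti-Ox40 and control Ig with high beads. The labels do not say whether the 3 libraries of a group came from separate mice or separate cultures, so the spread between them may be technical.

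Metallothioneins are small cysteine-rich proteins that bind zinc and copper ions in the cytosol and buffer the free metal. MTF-1, the product of Mtf1, binds zinc and then activates genes that carry metal response elements in their promoters, and in the mouse these include Mt1, Mt2 and Slc30a1. ZnT1, the product of Slc30a1, moves zinc out of the cell, while ZIP6 and ZIP10, the products of Slc39a6 and Slc39a10, bring it in. In human T cells zinc entering through ZIP6 is known to take part in signalling from the T cell receptor, and in the mouse MTF-1 is known to repress Slc39a10.

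Mt2 and Mt1 lie side by side on the same strand of chromosome 8, at 94172618 to 94173567 and 94178883 to 94180327 in the RefSeq annotation of GRCm38.p6, with 5315 bases between them. Elsewhere in the genome lie Slc30a1 (191906697 to 191913248) and Slc39a10 (46807544 to 46925776) on chromosome 1, and Mtf1 (124802549 to 124849800) on chromosome 4. The RefSeq promoters of Mt1, Mt2 and Slc30a1 are shown because these are the textbook MTF-1 targets among the members. Mt1 and Mt2 on one side and Slc30a1 on the other moved in opposite directions with bead dose. Whether the promoter sequences bear on these directions was not tested. Each window runs from 250 bases before the annotated start of the transcript to the first 30 bases of it, 5′ to 3′ on the strand of the gene. Capitals mark matches to the core of the metal response element, TGCACNC or TGCGCNC, read on either strand, and no 2 of the matches overlap. The windows are chr8:94178839-94179118 (plus strand) for Mt1, chr8:94172368-94172647 (plus strand) for Mt2 and chr1:191906531-191906810 (plus strand) for Slc30a1.
Mt1: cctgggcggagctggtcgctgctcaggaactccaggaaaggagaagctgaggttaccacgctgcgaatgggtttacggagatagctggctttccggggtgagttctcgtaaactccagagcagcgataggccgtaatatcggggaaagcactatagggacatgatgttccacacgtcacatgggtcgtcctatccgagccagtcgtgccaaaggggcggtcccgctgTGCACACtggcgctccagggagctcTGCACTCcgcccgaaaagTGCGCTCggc
Mt2: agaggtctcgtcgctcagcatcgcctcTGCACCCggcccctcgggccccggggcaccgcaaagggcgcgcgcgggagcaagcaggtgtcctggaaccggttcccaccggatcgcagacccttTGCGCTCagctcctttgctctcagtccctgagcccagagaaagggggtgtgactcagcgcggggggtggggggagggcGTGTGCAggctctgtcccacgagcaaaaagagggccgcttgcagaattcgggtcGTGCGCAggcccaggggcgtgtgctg
Slc30a1: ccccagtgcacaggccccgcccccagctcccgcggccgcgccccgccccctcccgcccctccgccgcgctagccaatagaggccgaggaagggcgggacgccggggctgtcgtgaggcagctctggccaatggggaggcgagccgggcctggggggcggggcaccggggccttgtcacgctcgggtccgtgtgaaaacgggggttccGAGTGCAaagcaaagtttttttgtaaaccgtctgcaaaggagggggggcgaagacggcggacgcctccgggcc
The Mt1 window held 3 matches, all on the strand of the gene, at positions -23, 3 and 21, counted with the first base of the transcript as 1 and the base before it as -1, and given for the leftmost base of the match. Mt2 held 4 matches, at -223 and -128 on its own strand and at -50 and 5 on the other strand, and Slc30a1 held 1 match, at -43 on the other strand. Of 32851 RefSeq promoter windows of the same length, 24.1% held at least 1 match, 1.73% at least 3 and 0.405% at least 4. The Mtf1 window and both Slc39a10 windows held 0 matches. The annotated genes Mt1 and Slc30a1 begin upstream of the transcript start used here, so these windows cover 1 annotated start of each gene. Whether the cells used these starts, or others further along the genes, was not tested. All positions are therefore relative to the annotated starts only. Sequence beyond the windows, further along the genes, was not searched, so the numbers of matches hold for these windows alone.

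**Figure D1:**
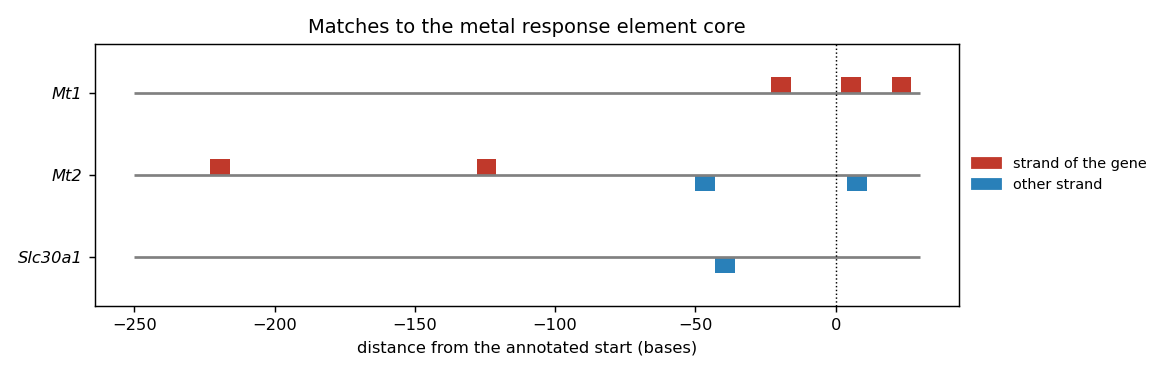
Positions of metal response element core matches in the promoter windows of Mt1, Mt2 and Slc30a1; the x axis gives the distance in bases from the annotated transcript start (dotted line), and boxes above and below each line mark the strand of the gene and the other strand. Mt1 has 3 matches close to this annotated start, Mt2 has 4 spread over the window and Slc30a1 has 1. Whether the cells used these starts was not tested, and sequence further along the genes was not searched.

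Levels are given in nRPKM, the authors' normalized reads per gene length and library size, so levels of different genes can be compared per length. Differences are differences of mean log2(nRPKM + 1) with their standard errors (SE) from a limma model of all 18 libraries, and this scale understates changes of low values. A gene was past the threshold when its Benjamini-Hochberg adjusted p over the 13075 tested genes was under 0.05, 2-sided. Per nRPKM and kilobase the libraries held 26.4 to 46.0 reads, and between 11763 and 12261 genes a library reached 1 nRPKM. The summed level of 8 CD4 T cell markers was 1464 to 1868 nRPKM in all libraries, while the CD8 genes Cd8a and Cd8b1 were at 0.008 to 0.433 and 4.35 to 6.52 nRPKM. Transcripts of other cells were present: the sum of 10 myeloid markers was 320 to 418 nRPKM under anti-Ox40 and 333 to 360 under control Ig without beads, 106 to 133 and 117 to 128 with low beads, and 36.7 to 42.0 and 41.9 to 50.5 with high beads. With low beads most of this sum was Ctss, at 90.9 to 105 nRPKM under anti-Ox40 and 97.0 to 102 under control Ig. In bulk RNA fewer cells of a type cannot be told apart from less RNA per cell. In every group replicate 3 had the highest sum of 8 B cell markers, 45.9 nRPKM under anti-Ox40 and 54.2 under control Ig with low beads, against 6.45 to 8.47 in the other low-bead libraries.

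The metallothionein genes were low without beads and far higher with high beads, under both antibodies. Without beads, Mt1 was at 2.94, 3.36 and 4.43 nRPKM under anti-Ox40 and at 2.68, 3.04 and 2.43 under control Ig. With low beads it was at 9.91, 9.27 and 12.5 nRPKM under anti-Ox40 and at 5.07, 6.12 and 5.22 under control Ig. With high beads it reached 114, 74.6 and 111 nRPKM under anti-Ox40 and 95.2, 76.8 and 88.5 under control Ig. Under each antibody the 3 bead doses did not overlap, and each step up in dose brought higher values.

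For high against no beads, the mean of Mt1 was 99.9 ± 22.0 against 3.58 ± 0.768 nRPKM under anti-Ox40 (SD, n = 3 each), a ratio of 27.9 and a log2 difference of 4.45 (SE 0.15). Under control Ig it was 86.8 ± 9.33 against 2.72 ± 0.307 nRPKM, a ratio of 32.0 and a log2 difference of 4.56 (SE 0.15). Most of this distance lay between low and high beads, where the log2 difference was 3.11 (SE 0.15) under anti-Ox40 and 3.76 (SE 0.15) under control Ig. Low against no beads it was 1.34 (SE 0.15) under anti-Ox40 and 0.80 (SE 0.15) under control Ig. The low- and high-bead comparisons of an antibody share its libraries without beads.

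Mt2, the neighbour of Mt1, moved with it at a lower level. Without beads it was at 2.21, 2.07 and 1.57 nRPKM under anti-Ox40 and at 2.08, 1.74 and 1.88 under control Ig. With low beads the values were 3.93, 4.25 and 6.09 nRPKM under anti-Ox40 and 2.74, 3.80 and 2.59 under control Ig. With high beads they were 67.7, 39.6 and 66.2 nRPKM under anti-Ox40 and 60.3, 49.1 and 51.7 under control Ig. The bead doses again did not overlap under either antibody. The ratio of means for high against no beads was 29.7 under anti-Ox40 (log2 difference 4.29, SE 0.18) and 28.2 under control Ig (4.23, SE 0.18). Low against no beads, the log2 difference was 0.95 (SE 0.18) under anti-Ox40 and 0.47 (SE 0.18) under control Ig, and without the library of each group that was highest in B cell markers the anti-Ox40 value was 0.70.

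The ratio of Mt1 to Mt2 stayed between 1.28 and 2.83 in all 18 libraries, while Mt1 ranged between 2.43 and 114 nRPKM. With high beads it was 1.68 to 1.88 under anti-Ox40 and 1.56 to 1.71 under control Ig. In replicate 2 of anti-Ox40 with high beads both genes were lowest of the group, at 74.6 nRPKM for Mt1 and 39.6 for Mt2. Its ratio of Mt1 to Mt2 was 1.88, the highest of that group, against 1.68 in each of the other libraries. At the best-fitting lengths, 760 bases for Mt1 and 556 bases for Mt2, the values correspond to whole reads in the 12 libraries checked, those without beads and with low beads. These amount to 78 to 89 reads of Mt1 under anti-Ox40 and 67 to 79 under control Ig without beads, and to 23 to 43 and 33 to 41 reads of Mt2. With low beads Mt1 had 252 to 307 reads under anti-Ox40 and 135 to 177 under control Ig. With high beads Mt1 had about 1839 to 3797 reads under anti-Ox40 and 1980 to 2509 under control Ig, so the counting error is far larger, in relative terms, without beads. The high-bead values were too large for the check of whole reads, and their reads are rounded.

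**Figure D2:**
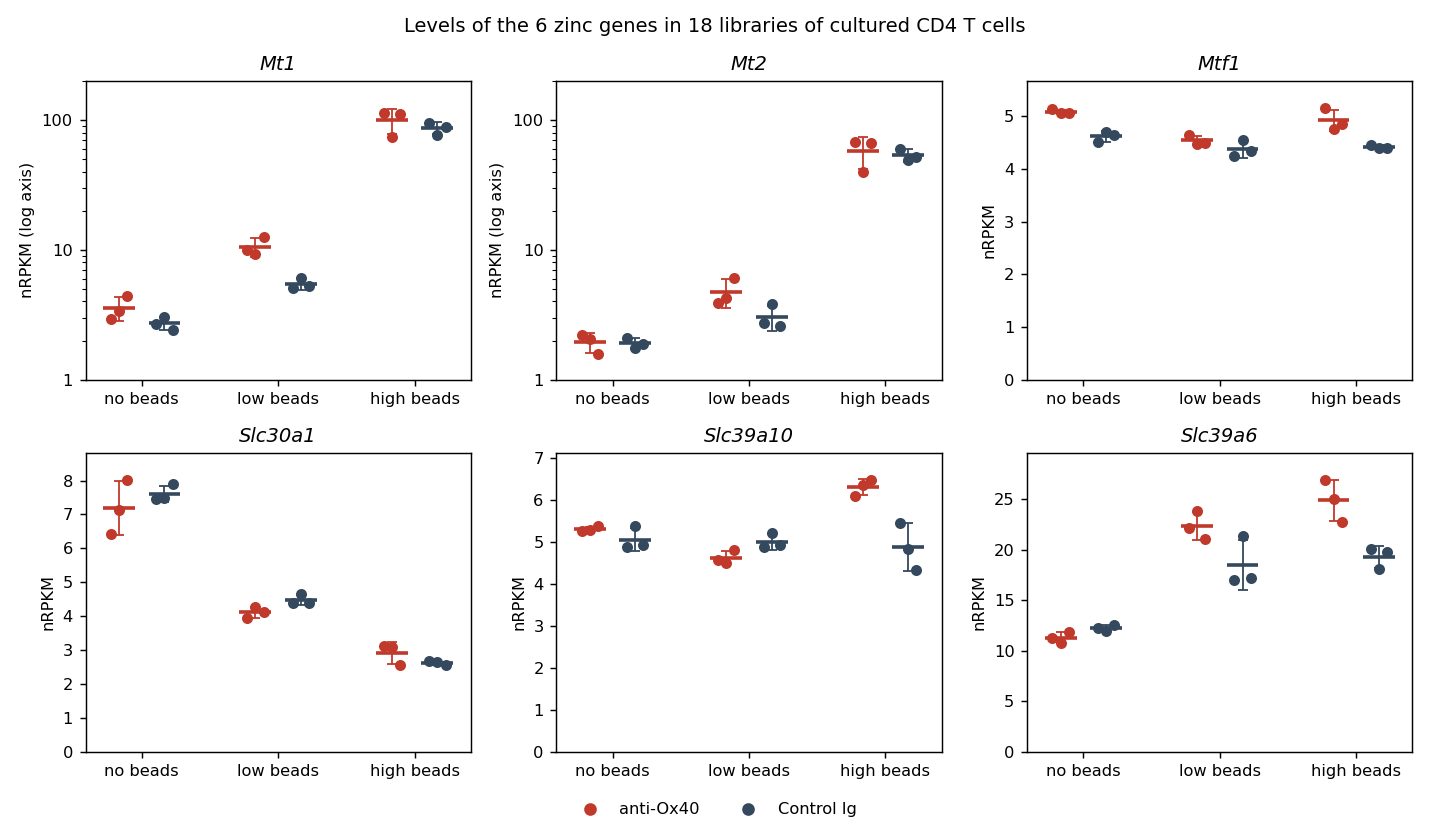
Level of each of the 6 genes in nRPKM (y axis, logarithmic for Mt1 and Mt2) in the 18 libraries, by bead dose (x axis) and antibody; points are libraries, horizontal lines group means and bars the SD of 3 libraries. Mt1 and Mt2 are higher at each higher bead dose, at 74.6 to 114 nRPKM and 39.6 to 67.7 under anti-Ox40 with high beads, Slc30a1 is lower, and Mtf1 stays between 4.24 and 5.16 nRPKM.

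With low beads the metallothionein genes were higher under anti-Ox40 than under control Ig in every library. Mt1 was past the threshold and Mt2 was not, but nothing is read from this, since the genes were chosen with these comparisons known. The mean of Mt1 was 10.6 ± 1.70 nRPKM under anti-Ox40 and 5.47 ± 0.567 under control Ig (SD, n = 3 each), a ratio of 1.93 and a log2 difference of 0.83 (SE 0.15), with no overlap between the groups. Mt2 was at 4.75 ± 1.16 and 3.04 ± 0.660 nRPKM, a ratio of 1.56 and a log2 difference of 0.50 (SE 0.18), again without overlap. Leaving out the library of each group with the most B cell transcripts gave log2 differences of 0.69 for Mt1 and 0.26 for Mt2. In reads, Mt2 had 73 to 107 under anti-Ox40 and 49 to 75 under control Ig with low beads.

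With high beads the antibody groups overlapped for both genes, with log2 differences of 0.18 (SE 0.15) for Mt1 and 0.07 (SE 0.18) for Mt2. Without beads they also overlapped, at 0.29 (SE 0.15) and 0.02 (SE 0.18). The antibody difference of Mt1 was smaller with high than with low beads by 0.65 on the log2 scale (-0.65, SE 0.22). Neither for Mt1 nor for Mt2 was any difference of the antibody effect between doses past the threshold, and from this too nothing is read.

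Transcripts of other origin also differed between the low-bead groups. The sum of 8 lung epithelium markers was 64.4, 40.1 and 223 nRPKM in anti-Ox40 replicates 1 to 3, against 0.014, 23.8 and 26.8 in control Ig replicates 1 to 3. Without beads it was at most 0.107 nRPKM in any library, and with high beads it was 29.6 to 54.8 nRPKM under anti-Ox40 and 31.6 to 123 under control Ig. All 6 tested lung markers of the list of 8 were past the threshold as higher under anti-Ox40 with low beads, against 6.15% of all tested genes. The airway gene Scgb1a1 was at 26.5 to 148 nRPKM under anti-Ox40 and 0 to 18.2 under control Ig with low beads, and was listed at 0 in all libraries without beads. The sum of 4 nuclear RNAs was 352, 377 and 381 nRPKM under anti-Ox40 and 646, 294 and 612 under control Ig with low beads. Replicate 2 of control Ig, the lowest in nuclear RNA of these 6, was the highest of its group in every gene of the set. Without it the low-bead differences were 0.90 for Mt1, 0.63 for Mt2 and 0.37 for Slc39a6. They were 0.07 for Mtf1, -0.08 for Slc30a1 and -0.07 for Slc39a10. The part of these transcripts in the antibody differences was not tested.

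Mtf1, whose product senses zinc and drives the metallothionein genes, varied little. Without beads it was at 5.13, 5.06 and 5.07 nRPKM under anti-Ox40 and at 4.51, 4.70 and 4.65 under control Ig. With low beads the values were 4.65, 4.48 and 4.50 nRPKM under anti-Ox40 and 4.24, 4.56 and 4.34 under control Ig. With high beads they were 5.16, 4.77 and 4.86 nRPKM under anti-Ox40 and 4.47, 4.41 and 4.41 under control Ig. The lowest of all 18 values was 4.24 nRPKM and the highest 5.16. Between high and no beads, the log2 difference was -0.04 (SE 0.04) under anti-Ox40 and -0.05 (SE 0.04) under control Ig, beside differences above 4 for Mt1 and Mt2.

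Mtf1 was slightly higher under anti-Ox40 than under control Ig without beads and with high beads, where the groups did not overlap. The log2 differences were 0.12 (SE 0.04) without beads, 0.04 (SE 0.04) with low beads, where the groups overlapped, and 0.13 (SE 0.04) with high beads. The largest bead difference was low against no beads under anti-Ox40, at -0.14 (SE 0.04), against -0.06 (SE 0.04) under control Ig.

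Slc30a1, the gene of the zinc exporter ZnT1, went the other way from Mt1 and Mt2. Without beads it was at 6.43, 7.12 and 8.01 nRPKM under anti-Ox40 and at 7.46, 7.49 and 7.89 under control Ig. With low beads it was at 3.94, 4.28 and 4.11 nRPKM under anti-Ox40 and at 4.40, 4.64 and 4.40 under control Ig. With high beads it was at 3.10, 3.08 and 2.55 nRPKM under anti-Ox40 and at 2.66, 2.63 and 2.56 under control Ig. The 3 doses did not overlap under either antibody, and the highest dose had the lowest values.

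The ratio of means of Slc30a1 for high against no beads was 0.405 under anti-Ox40 (log2 difference -1.07, SE 0.07) and 0.344 under control Ig (-1.25, SE 0.07). Low against no beads the log2 difference was -0.68 (SE 0.07) under anti-Ox40 and -0.65 (SE 0.07) under control Ig, and high against low beads it was -0.39 (SE 0.07) and -0.60 (SE 0.07). Antibody differences were small, at -0.08 (SE 0.07) without beads, -0.10 (SE 0.07) with low beads and 0.11 (SE 0.07) with high beads. The groups were apart only with low beads, where anti-Ox40 was wholly lower. The summed myeloid markers were also lower at each higher bead dose. Lyz2, the lysozyme of myeloid cells, was at 2.53 ± 0.894 nRPKM with high beads against 222 ± 39.6 without beads under anti-Ox40. Under control Ig it was at 3.97 ± 2.56 against 213 ± 16.3 (SD, n = 3 each). Low against no beads, 8 of the 9 tested myeloid markers were lower past the threshold under each antibody (33.7% and 29.8% of all tested genes). Ctss of the same list was not, at 99.8 ± 7.74 nRPKM with low against 95.8 ± 7.81 without beads under anti-Ox40. Its control Ig values were 99.2 ± 2.75 against 93.0 ± 3.68. Only with high beads was Ctss lower, under both antibodies. The sum of 6 platelet and red cell markers, nearly all of it from the platelet genes Pf4, Ppbp and Itga2b, was 55.7 to 81.4 nRPKM under anti-Ox40 and 54.1 to 73.6 under control Ig without beads, 35.01 to 50.03 and 37.3 to 45.6 with low beads, and 6.97 to 7.21 and 11.3 to 13.9 with high beads. The sum of 6 NK cell markers did not follow dose in this way. It was 39.6 to 51.4 and 41.9 to 49.4 nRPKM without beads under anti-Ox40 and control Ig. With low beads it was 27.1 to 33.4 and 21.7 to 29.7, and with high beads 72.9 to 121 and 52.7 to 84.7. With high beads most of it was Gzma, at 92.6 ± 24.8 nRPKM under anti-Ox40 and 65.7 ± 15.3 under control Ig. Without beads Gzma was at 10.2 ± 1.16 and 10.9 ± 0.756 nRPKM (SD, n = 3 each). Klrd1 of that list was at 1.86 ± 0.573 nRPKM with high beads against 30.6 ± 5.30 without beads under anti-Ox40. Under control Ig it was at 2.94 ± 0.752 against 30.1 ± 2.69. Mean levels of Klrb1c and Ncr1 were also lower at each higher bead dose, under both antibodies. Klra8 and Klre1 had means of at most 0.28 nRPKM in any group. The part of these transcripts in the values of Slc30a1 was not tested.

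Slc39a10, the gene of the importer ZIP10, had overlapping levels at all doses under control Ig and separate ones under anti-Ox40. Under anti-Ox40 it was at 5.25, 5.28 and 5.36 nRPKM without beads, at 4.57, 4.50 and 4.80 with low beads and at 6.09, 6.36 and 6.47 with high beads. Under control Ig it was at 4.87, 5.38 and 4.91 nRPKM without beads, at 4.87, 5.20 and 4.92 with low beads and at 5.46, 4.83 and 4.32 with high beads. The 3 doses were fully apart under anti-Ox40, with low beads lowest and high beads highest, and overlapped under control Ig. The 3 control Ig libraries with high beads spread more widely (SD 0.572) than those of the other groups (SD 0.0594 to 0.281).

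High against no beads, the log2 difference of Slc39a10 was 0.21 (SE 0.06) under anti-Ox40 and -0.05 (SE 0.06) under control Ig. High against low beads it was 0.38 (SE 0.06) under anti-Ox40 and -0.04 (SE 0.06) under control Ig. With high beads the mean was 6.31 ± 0.192 nRPKM under anti-Ox40 and 4.87 ± 0.572 under control Ig (SD, n = 3 each), a log2 difference of 0.32 (SE 0.06) without overlap. Without the library of each group highest in B cell markers it was 0.24, and without control Ig replicate 1, the highest of its group, it was 0.39. With low beads the groups were also apart, but with anti-Ox40 lower (-0.09, SE 0.06), and without beads they overlapped (0.06, SE 0.06). The antibody difference was larger with high than with low beads by 0.41 on the log2 scale (SE 0.09).

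Slc39a6, the gene of the importer ZIP6 (chromosome 18, 24579881 to 24603817), had the highest level of the 6 genes without beads. It was then at 11.2, 10.8 and 11.8 nRPKM under anti-Ox40 and at 12.2, 12.0 and 12.5 under control Ig. With low beads it was at 22.2, 23.8 and 21.1 nRPKM under anti-Ox40 and at 17.0, 21.4 and 17.2 under control Ig. With high beads it was at 26.9, 25.0 and 22.8 nRPKM under anti-Ox40 and at 20.1, 18.1 and 19.7 under control Ig. All bead-stimulated libraries were above all libraries without beads, while low and high beads overlapped under both antibodies.

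Comparing high with no beads, the ratio of means of Slc39a6 was 2.21 under anti-Ox40 (log2 difference 1.07, SE 0.08) and 1.58 under control Ig (0.62, SE 0.08). Low against no beads the log2 difference was already 0.93 (SE 0.08) under anti-Ox40 and 0.55 (SE 0.08) under control Ig. Without beads, anti-Ox40 was wholly lower than control Ig (-0.11, SE 0.08). With low beads anti-Ox40 was higher by 0.26 (SE 0.08) with overlap in 1 control Ig library, and with high beads by 0.35 (SE 0.08) without overlap. The antibody difference was larger with high than with no beads by 0.46 on the log2 scale (SE 0.11). The ratio of Slc39a6, an importer, to Slc30a1, the exporter, was 1.48 to 1.74 under anti-Ox40 and 1.59 to 1.64 under control Ig without beads, 5.14 to 5.63 and 3.86 to 4.60 with low beads, and 8.12 to 8.94 and 6.87 to 7.73 with high beads.

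**Figure D3:**
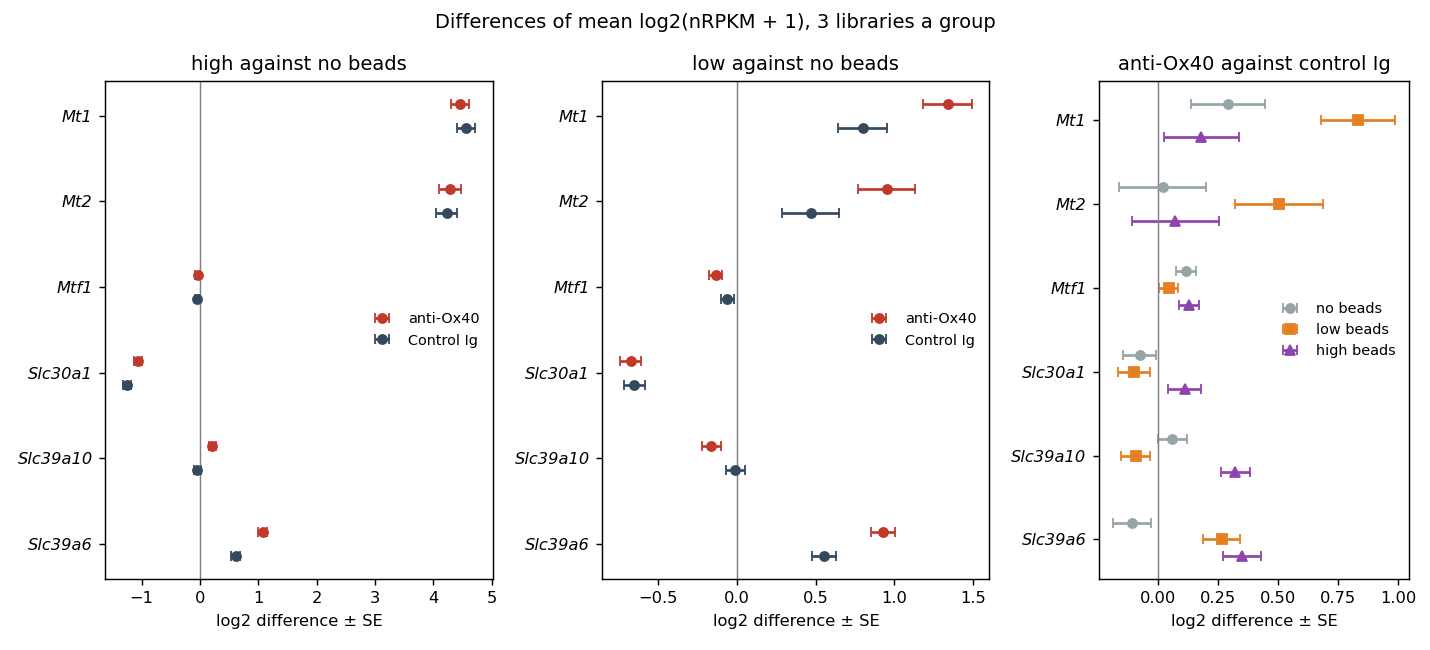
Differences of mean log2(nRPKM + 1) (x axis) with their SE for the 6 genes (y axis), 3 libraries a group: high against no beads and low against no beads under each antibody, and anti-Ox40 against control Ig at each bead dose. High beads shift Mt1 and Mt2 by 4.23 to 4.56 and Slc30a1 by -1.25 to -1.07, and the widest antibody difference is that of Mt1 with low beads, at 0.83.

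The order of the 6 groups differed between the genes. For Mt1 and Mt2 it ran from high through low to no beads with anti-Ox40 above control Ig at each dose. Neighbouring groups in that order overlapped only within the high-bead and the no-bead pair. For Slc30a1 the order of doses was inverted, and for Slc39a6 anti-Ox40 with high beads and with low beads came first, overlapping each other, ahead of control Ig with high and low beads. For Slc39a10 anti-Ox40 with high beads stood alone at the top, and each other neighbouring pair overlapped.

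The number of the 6 genes past the threshold is given beside the share of all 13075 tested genes, and nothing is read from it, because the genes were chosen with these comparisons known. For anti-Ox40 against control Ig, 0 of 6 were higher and 0 lower without beads, against 0.138% and 0% of all genes. With low beads 2 were higher and 0 lower, against 6.15% and 3.44%, and with high beads 3 were higher and 0 lower, against 14.4% and 11.6%. Under anti-Ox40, 3 were higher and 3 lower for low against no beads (37.1% and 33.7% of all genes), 4 and 1 for high against low beads (40.3% and 31.2%) and 4 and 1 for high against no beads (45.2% and 39.3%). Under control Ig, 3 were higher and 1 lower for low against no beads (32.6% and 29.8%), 2 and 1 for high against low beads (40% and 32.5%) and 3 and 1 for high against no beads (43.4% and 38.9%). For the difference of the antibody effect between doses, 0 of 6 were past the threshold for low minus no beads (0.268% of all genes), 1 for high minus no beads (11.1%), which was Slc39a6, and 1 for high minus low beads (3.17%), which was Slc39a10.

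The rest of the zinc transport system was examined in a list of 23 other metallothionein and zinc transporter genes, 14 of which were expressed enough to be tested with limma. The 9 that were not tested were Mt3, Mt4, Slc30a2, Slc30a3, Slc30a8, Slc30a10, Slc39a2, Slc39a5 and Slc39a12. This list, and the lists of related genes below, were also chosen with earlier results of these libraries known, which limits their adjusted p values. Mt3, a metallothionein best known from the brain, was at 0.744 ± 0.303 nRPKM under anti-Ox40 and 1.23 ± 0.257 under control Ig with high beads, and at 0.0373 ± 0.0325 and 0.0520 ± 0.0510 without beads (SD, n = 3 each). High against no beads, 8 of the 14 tested genes rose and 3 fell under anti-Ox40 (45.2% and 39.3% of all tested genes), and 6 rose and 4 fell under control Ig (43.4% and 38.9%). The median log2 difference of the 14 was 0.21 under anti-Ox40 and 0.09 under control Ig, beside 0.06 and 0.04 over all tested genes.

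Among the 14 tested genes, importers of the Slc39 family had the widest rise. Slc39a8, whose product ZIP8 is known in human T cells to release zinc from lysosomes, was at 10.8, 10.3 and 9.80 nRPKM with high beads against 2.75, 2.75 and 2.42 without beads under anti-Ox40. It rose by 1.64 on the log2 scale (SE 0.07, adjusted p = 1.46e-12, limma) under anti-Ox40 and by 1.63 (SE 0.07, adjusted p = 1.94e-12) under control Ig. Slc39a1, the gene of the plasma membrane importer ZIP1, rose by 1.32 (SE 0.06, adjusted p = 1.16e-11) under anti-Ox40 and by 1.08 (SE 0.06, adjusted p = 1.74e-10) under control Ig. Slc39a14, the gene of ZIP14, an importer of zinc, iron and manganese, rose by 1.04 (SE 0.06, adjusted p = 1.26e-10) under anti-Ox40 and by 0.66 (SE 0.06, adjusted p = 4.65e-08) under control Ig. All 3 were higher in every high-bead library than in every library without beads under the same antibody.

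Among the genes of intracellular zinc transport the directions were mixed. Slc30a9, whose product moves zinc out of mitochondria, rose by 0.68 (SE 0.04, adjusted p = 7.51e-11, limma) under anti-Ox40 and by 0.53 (SE 0.04, adjusted p = 2.15e-09) under control Ig, high against no beads. Slc39a13, whose product ZIP13 sits in the early secretory pathway, fell by 0.82 (SE 0.08, adjusted p = 1.04e-07) under anti-Ox40 and fell by 0.65 (SE 0.08, adjusted p = 2.01e-06) under control Ig. Slc30a7, the gene of a Golgi zinc transporter, fell by 0.63 (adjusted p = 6.49e-06) under anti-Ox40 and fell by 0.48 (adjusted p = 0.000112) under control Ig, and Slc39a3, the gene of an importer, fell by 0.42 (adjusted p = 9.87e-07) and fell by 0.34 (adjusted p = 1.26e-05). Slc39a4, the gene of the importer best known from the intestine, followed no single direction: low against no beads it fell by 0.30 (adjusted p = 0.00223) under anti-Ox40 and fell by 0.39 (adjusted p = 0.000318) under control Ig, and high against low beads it rose by 0.58 (adjusted p = 4.79e-06) and by 0.70 (adjusted p = 6.56e-07).

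Low against no beads, 4 of the 14 rose and 5 fell under anti-Ox40 (37.1% and 33.7% of all tested genes), and 2 rose and 5 fell under control Ig (32.6% and 29.8%). Without control Ig replicate 3 of the no-bead group, the control Ig comparison had 4 genes past the threshold in place of 7, and the same number without the library of each group highest in B cell markers. High against low beads, 9 rose and 3 fell under anti-Ox40 (40.3% and 31.2% of all tested genes), and 5 rose and 3 fell under control Ig (40% and 32.5%).

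**Figure D4:**
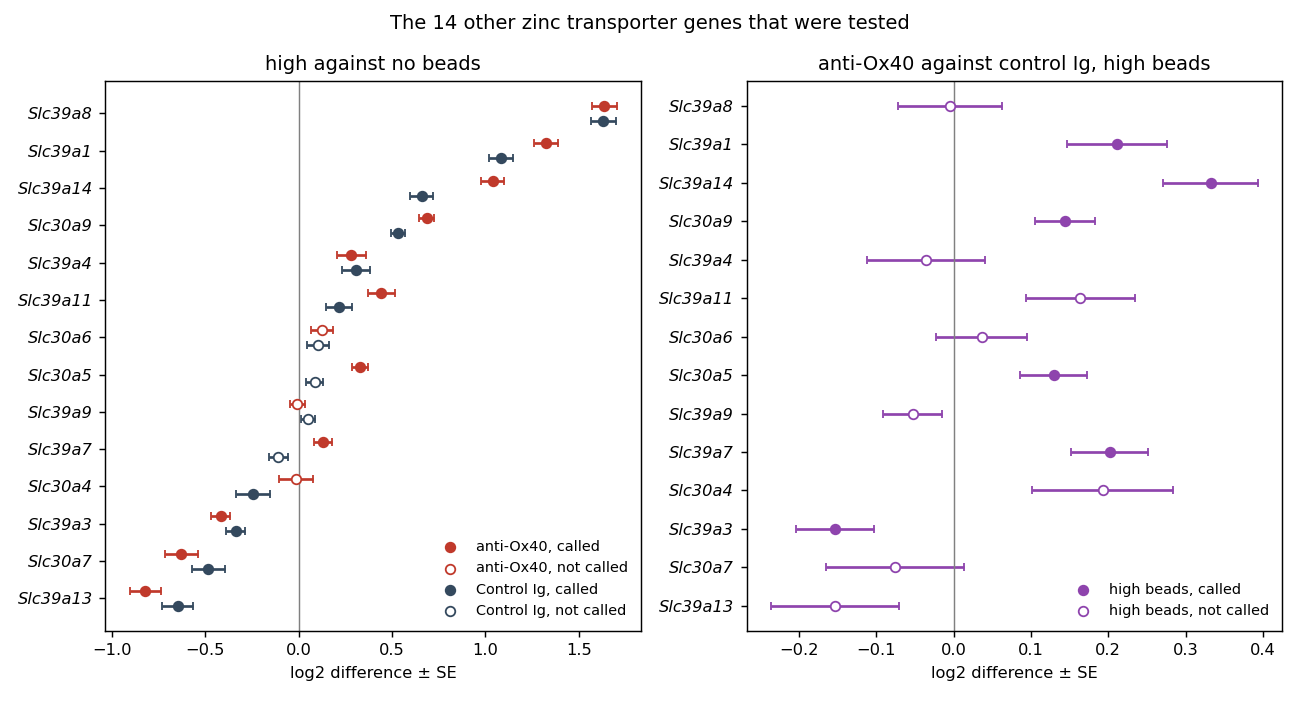
Log2 differences with SE (x axis) of the 14 tested zinc transporter genes outside the set of 6 (y axis), for high against no beads under each antibody and for anti-Ox40 against control Ig with high beads; filled points passed an adjusted p of 0.05 (limma). Slc39a8, Slc39a1 and Slc39a14 show the widest rise with high beads, and Slc39a14 the widest antibody difference, at 0.33.

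Anti-Ox40 against control Ig with high beads, 5 of the 14 were higher and 1 was lower past the threshold, against 14.4% and 11.6% of all tested genes. The median log2 difference was 0.08, beside 0.00428 over all tested genes. Slc39a14 was at 9.29, 8.09 and 9.12 nRPKM under anti-Ox40 and at 7.29, 6.64 and 6.49 under control Ig, and was higher by 0.33 (SE 0.06, adjusted p = 0.00115, limma). Slc39a7, the gene of ZIP7, which releases zinc from the endoplasmic reticulum, was at 65.5, 63.9 and 59.7 nRPKM under anti-Ox40 and at 55.5, 55.2 and 53.2 under control Ig, and was higher by 0.20 (SE 0.05, adjusted p = 0.00733). Slc30a9 (0.14, adjusted p = 0.0126), Slc39a1 (0.21, adjusted p = 0.0248) and Slc30a5 (0.13, adjusted p = 0.0388) were higher too, and Slc39a3 was lower (-0.15, adjusted p = 0.0358). The antibody groups did not overlap for any of these 6 genes. The count of 6 was 3 when anti-Ox40 replicate 1, anti-Ox40 replicate 3 or control Ig replicate 2 was left out, and 1 without the library of each group highest in B cell markers. Leaving out 1 library of each group also lowers the power of the fit. With high beads the libraries left out had B cell sums of 7.19 nRPKM under anti-Ox40 and 12.6 under control Ig. The others had 4.34 to 4.59 and 4.46 to 4.50. The part of B cell transcripts in the count was not tested.

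Without beads, and with low beads, 0 of the 14 were past the threshold in limma, against 18 and 1254 of the 13075 tested genes. An unadjusted p under 0.05 was found for 1 and 2 of the 14, against 519 and 3771 of all tested genes. With low beads the count past the threshold was 2 without control Ig replicate 2. The antibody difference was larger with high than with no beads for 3 of the 14, Slc39a14 (0.38, SE 0.09, adjusted p = 0.0147), Slc30a5 (0.24, SE 0.06, adjusted p = 0.0222) and Slc39a7 (0.24, SE 0.07, adjusted p = 0.0409), against 11.1% of all tested genes in either direction. That count was 1 when anti-Ox40 replicate 1, control Ig replicate 2 or control Ig replicate 3 with high beads was left out, and 0 without the library of each group highest in B cell markers. For low minus no beads and for high minus low beads it was 0 of 14 each in limma, against 0.268% and 3.17% of all tested genes. An unadjusted p under 0.05 was found for 3 of the 14 each, against 2307 and 2638 of the 13075 tested genes. With high beads 5 of 8 CD4 T cell markers were also lower under anti-Ox40, against 11.6% of all tested genes. At that dose Cd3e was at 171 ± 9.91 nRPKM under anti-Ox40 and 218 ± 12.3 under control Ig (SD, n = 3 each). The nuclear RNA sum was then 114 to 127 nRPKM under anti-Ox40 and 157 to 193 under control Ig. The part of these in the zinc gene differences was not tested.

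The genes closest to the metallothioneins across the 18 libraries were found by Pearson correlation of log2(nRPKM + 1) with the mean of Mt1 and Mt2, given without a p because the libraries share groups and a bead dose that moves most genes. They were Higd1a (r = 0.996), a hypoxia-inducible mitochondrial gene, Slc37a4 (0.995), the glucose-6-phosphate transporter of the endoplasmic reticulum, Bsg (0.994), the partner protein of lactate transporters, Ak4 (0.994), a mitochondrial adenylate kinase, and Nxn (0.993), a thioredoxin-related protein. Higd1a averaged 2.56 nRPKM under anti-Ox40 and 2.43 under control Ig without beads, 4.61 and 3.26 with low beads, and 15.0 and 13.2 with high beads. Like Mt1, it was thus higher under anti-Ox40 than under control Ig with low beads, in means, but it was picked for that likeness. Ak4 averaged 0.0757 and 0.0520 nRPKM without beads, 1.81 and 0.580 with low beads, and 13.2 and 11.7 with high beads.

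For Slc39a10 the closest genes followed it less tightly. They were Stam (r = 0.851), Senp5 (0.838), Stk38l (0.831), Lepre1 (0.823) and Slc6a6 (0.821), n = 18 each. Slc6a6, the taurine transporter, averaged 22.5 nRPKM under anti-Ox40 and 22.5 under control Ig without beads, 20.8 and 21.6 with low beads, and 29.0 and 23.3 with high beads. Anti-Ox40 with high beads had the highest mean for all 5 genes, as for Slc39a10. The genes were picked for likeness to Slc39a10 in these same libraries, so a shared highest group follows from the choice.

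Metallothioneins also bind copper and respond to oxidants and glucocorticoids, and 3 lists covered these. Of 10 copper handling genes, all tested, 7 rose and 3 fell under anti-Ox40 and 7 rose and 2 fell under control Ig, high against no beads. Of all tested genes 45.2% rose and 39.3% fell under anti-Ox40, and 43.4% and 38.9% under control Ig. The median log2 differences of the copper genes were 1.01 and 0.89, beside 0.06 and 0.04 over all tested genes. Slc31a1, the gene of the copper importer CTR1, was at 12.2 nRPKM with high beads against 3.72 without beads under anti-Ox40, a rise of 1.48 (SE 0.07, adjusted p = 1.02e-11, limma), and rose by 1.35 (SE 0.07, adjusted p = 4.20e-11) under control Ig. Atp7b, the gene of a copper-exporting ATPase, rose by 1.88 (SE 0.09, adjusted p = 8.79e-12) and by 1.75 (SE 0.09, adjusted p = 2.75e-11), and its mean without beads was at most 0.0513 nRPKM. With low beads 3 of the 10 were higher under anti-Ox40 than under control Ig, Cox17 (0.33, adjusted p = 0.00242), Commd1 (0.22, adjusted p = 0.0432) and Atox1 (0.27, adjusted p = 0.0486). With high beads 1 was higher, Cox17 (0.24, adjusted p = 0.00336), and 2 were lower, Ccs (-0.30, adjusted p = 0.00612) and Slc31a2 (-0.24, adjusted p = 0.0210). Cox17, Atox1 and Ccs encode copper chaperones. Of all tested genes 6.15% were higher and 3.44% lower with low beads, and 14.4% and 11.6% with high beads.

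Of 10 genes of the NRF2 oxidant response, 4 rose and 5 fell under anti-Ox40 (45.2% and 39.3% of all tested genes) and 4 rose and 6 fell under control Ig (43.4% and 38.9%), high against no beads, with median log2 differences of -0.19 and -0.28. Hmox1, the heme oxygenase gene, fell by 1.80 (SE 0.12, adjusted p = 1.85e-09, limma) under anti-Ox40 and fell by 1.97 (SE 0.12, adjusted p = 8.90e-10) under control Ig, low against no beads. High against low beads it rose by 1.57 (SE 0.12, adjusted p = 1.04e-08) under anti-Ox40 and by 1.16 (SE 0.12, adjusted p = 3.05e-07) under control Ig. Its means were 21.6 nRPKM under anti-Ox40 and 21.7 under control Ig without beads, 5.41 and 4.82 with low beads, and 18.1 and 12.1 with high beads. The summed myeloid markers were also lower with low than with no beads, and lower again with high beads, where Hmox1 was higher. The part of myeloid transcripts in the values of Hmox1 was not tested. Prdx1, a peroxiredoxin gene, rose by 1.15 (SE 0.07, adjusted p = 9.20e-11) and by 1.00 (SE 0.07, adjusted p = 6.02e-10), high against no beads. With low beads 2 of the 10 were higher and 0 lower under anti-Ox40 than under control Ig (6.15% and 3.44% of all tested genes), Prdx1 (0.27, adjusted p = 0.0267) and Abcc1 (0.27, adjusted p = 0.0313). With high beads 7 were higher and 0 lower (14.4% and 11.6%), led by Abcc1 (0.52, adjusted p = 0.000153), Txnrd1 (0.42, adjusted p = 0.000232), Hmox1 (0.55, adjusted p = 0.00287) and Gsr (0.30, adjusted p = 0.00327). In the high-bead comparison Mt1 and Mt2 overlapped between the antibodies. Any link between these NRF2 genes and the metallothionein levels was not tested.

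Of 8 glucocorticoid-responsive genes, 2 rose and 5 fell under anti-Ox40 (45.2% and 39.3% of all tested genes) and 2 rose and 6 fell under control Ig (43.4% and 38.9%), high against no beads, with median log2 differences of -0.45 and -0.60. Ddit4, an inhibitor of mTOR signalling, was at 214 nRPKM with high beads against 16.6 without beads under anti-Ox40, a rise of 3.62 (SE 0.10, adjusted p = 2.09e-14, limma), and rose by 3.51 (SE 0.10, adjusted p = 3.34e-14) under control Ig. Tsc22d3, which encodes the glucocorticoid-induced leucine zipper, was at 3.71 nRPKM with high beads against 8.65 without beads under anti-Ox40, and fell by 1.04 (SE 0.08, adjusted p = 7.00e-09, limma) under anti-Ox40 and fell by 1.01 (SE 0.08, adjusted p = 1.12e-08) under control Ig. Fkbp5, a co-chaperone gene of the glucocorticoid receptor, rose by 1.00 (SE 0.04, adjusted p = 4.83e-13) and by 1.04 (SE 0.04, adjusted p = 3.82e-13). With low beads 1 of the 8 was higher under anti-Ox40 than under control Ig, Ddit4 (0.48, adjusted p = 0.0154), and with high beads 1 was, the kinase gene Sgk1 (0.30, adjusted p = 0.0115). At each of these doses 0 of the 8 were lower. Of all tested genes 6.15% were higher and 3.44% lower with low beads, and 14.4% and 11.6% with high beads.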

How the data were processed

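RNA sequencing of 18 libraries was deposited by the authors as 1 table of nRPKM, that is RPKM values with a further normalization between libraries. The submitters' processing notes name the aligner GSNAP and the build GRCm38. Versions, annotation, counting method and the scaling between libraries were not stated in any source used here. Libraries were grouped by the labelled antibody and bead dose.

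Genes with at least 1 nRPKM in at least 3 libraries (13075 of 36528 entries) were fitted as log2(nRPKM + 1), with a pseudocount of 1, in limma 3.58.1 (R 4.3.3; 1 mean per group, eBayes with trend, 12 residual degrees of freedom). There were 9 comparisons of 2 groups and 3 differences of the antibody effect, each adjusted by Benjamini-Hochberg over all tested genes and called under 0.05. The fit was tested on simulated data. Depth was worked out from values of 1143 microRNA genes, taken as whole reads (100% within 0.1 read), and gives counting error only. Motifs were searched and figures drawn in Python 3.11.15.

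The 6 genes and all gene lists were chosen with earlier results of these data known. Every tested gene of the zinc list could be named, up to 4 called genes a comparison (smallest adjusted p) of the copper, NRF2 and glucocorticoid lists, and 5 genes by likeness to each profile. Alternatives were pseudocounts of 0.1 and 0.5, no filter, median-ratio rescaling, no variance trend, the compared groups alone, and leaving out libraries.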

Additional observations from a re-analysis of the deposited data

Results flagged for a closer look

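The antibody difference (anti-Ox40 minus control Ig, in log2) was larger with high than with no beads by 0.38 for Slc39a14 (adjusted p = 0.0147), by 0.243 for Slc30a5 (adjusted p = 0.0222) and by 0.239 for Slc39a7 (adjusted p = 0.0409), each in limma with 3 libraries a group. In these 3 genes the 3 anti-Ox40 libraries with high beads were all above the 3 control Ig libraries. The count of 3 became 1 without anti-Ox40 replicate 1, control Ig replicate 2 or control Ig replicate 3 with high beads, and 0 without the library of each group highest in B cell markers.

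Among the 6 genes and the 14 other zinc genes that were tested, 3 had antibody groups that were fully apart in opposite directions at 2 bead doses. The share of all tested genes with this pattern was not worked out, so nothing is read from the count. For Slc39a10 the log2 difference was 0.32 with high beads and -0.093 with low beads. For Slc39a6 it was 0.349 with high beads and -0.109 without beads. No p is given for these 2 genes, since they were chosen with the results known. For Slc30a5 it was 0.129 with high beads and -0.113 without beads, and the test of that change is the one given above. The list that holds Slc30a5 was also chosen with earlier results of these data known, which limits that test too.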

How the results depend on the processing

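Each count of the 14 other zinc genes past the threshold was recomputed under the alternatives. Without the library of each group highest in B cell markers, an alternative chosen after seeing the data, the count fell to 1 for anti-Ox40 against control Ig with high beads (6 with all libraries), to 4 for low against no beads under control Ig (7) and to 0 for the antibody effect, high minus no beads (3). Leaving out 1 library at a time gave 0 to 2 for anti-Ox40 against control Ig with low beads (0 with all libraries), 3 to 5 with high beads (6), 4 to 7 for low against no beads under control Ig (7), 0 to 1 for the antibody effect, low minus no beads (0), and 1 to 4 for high minus no beads (3). That last count was 1 without anti-Ox40 replicate 1, control Ig replicate 2 or control Ig replicate 3 with high beads. The cause was not tested. All other counts stayed within 1.5 times under every alternative run. Where a group was left with fewer libraries, its spread was taken from the pooled estimate. Fewer libraries also lower the power of the fit, and the part of this in the lower counts was not tested.

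For the 6 genes, no difference past the threshold changed sign under 150 alternatives a gene, and 2 (Mt1), 8 (Mt2), 4 (Mtf1), 10 (Slc30a1), 7 (Slc39a10) and 0 (Slc39a6) moved by more than the spread between replicates. A pseudocount of 0.1 gave log2 differences of 4.76 (Mt1) and 4.79 (Mt2) under anti-Ox40 and 4.95 and 4.75 under control Ig, high against no beads. No paired analysis was possible because the labels give no number shared between groups. Replicates were numbered in order of deposition, and whether the libraries numbered 3, highest in B cell markers in all 6 groups, share a source is not stated. Reads could be worked out only for Mt1 and Mt2, since no length searched gave whole reads for Mtf1, Slc30a1, Slc39a10 and Slc39a6. Between Mt1 and Mt2, read depth limits Mt2 more, with 23 to 43 reads under anti-Ox40 and 33 to 41 under control Ig without beads.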
